A study of Mus musculus with 8 samples.

Results

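The urea cycle of mouse liver was followed through 8 genes, 6 enzymes and 2 mitochondrial carriers, in livers injured by the porphyrinogenic compound 3,5-diethoxycarbonyl-1,4-dihydrocollidine (DDC). The genes were taken by symbol (Nags, Cps1, Otc, Slc25a15, Slc25a13, Ass1, Asl and Arg1) from the 33467 genes of the deposited expression table. Each symbol had 1 row there, and all 8 genes passed the filter on low counts that left 19535 genes for testing.

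The urea cycle turns ammonia, the toxic waste nitrogen of amino acid breakdown, into urea that the kidney can excrete. It starts in the mitochondria of hepatocytes, where carbamoyl phosphate is made and joined to ornithine to give citrulline, and ends in the cytosol, where aspartate brings in further nitrogen and arginine is split into urea and ornithine. The whole cycle runs in hepatocytes, with its genes most active around the portal vein, and inherited loss of any of its enzymes or of the ornithine carrier raises blood ammonia.

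The DDC group was 4 wild type C57BL/6J mice given 1% DDC in the feed for 4 weeks, and the control group was 4 wild type C57BL/6J mice on standard feed for the same 4 weeks. The DDC feed is used to bring about cholestasis and biliary fibrosis. The age and sex of the animals are not given in the sources used here, and the labels name a single batch for the 8 libraries. Polyadenylated RNA of whole liver was sequenced, so fewer hepatocytes and less RNA per hepatocyte cannot be told apart.

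Libraries held 63312756 to 81664058 gene counts in the DDC group and 61179103 to 64768950 in the control group. Libraries of each group differed by more than sampling noise, for which a chi-square per gene of 1 stands. DDC 1 stood apart from the other DDC libraries, with 94.4 to 105 per gene against 16.8 to 24.0 among DDC 2 to 4. Controls 1 and 3 were close to each other at 13.6, while the other control pairs ranged from 62.9 to 223. Trimmed-mean (TMM) scaling, which centres the libraries on the bulk of genes rather than on their totals, gave factors of 1.21 to 1.27 in DDC libraries and 0.792 to 0.815 in control libraries. The median gene of the 19535 stood at a log2 fold change of 0.073 under TMM and of 0.70 under plain library totals. This shift of 0.62 bears on every gene, so both scalings are given for each of the 8 genes and for the counts of the gene lists. Folds of other genes are with TMM scaling, and library totals place their log2 fold changes higher by about 0.62. Levels are in CPM, counts relative to the scaled size of the library, by TMM unless library totals are named, and a gene was called at an edgeR quasi-likelihood adjusted p under 0.05. The labels call the animals biological replicates, and the edgeR p-values set the difference between groups against the spread between animals of a group.

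RefSeq start sites (build GRCm38.p6) were matched for 5 of the 8 genes, namely Ass1, Slc25a13, Slc25a15, Nags and Otc. The 250 bases before the start are shown for the 2 of these genes with the largest log2 fold changes and for the gene with the smallest. They are written 5′ to 3′ on the gene's strand, with matches to the searched motifs in capitals. The windows are chr6:6217174-6217423 (minus strand) for Slc25a13, chrX:10252055-10252304 (plus strand) for Otc and chr11:102145263-102145512 (plus strand) for Nags.
Slc25a13: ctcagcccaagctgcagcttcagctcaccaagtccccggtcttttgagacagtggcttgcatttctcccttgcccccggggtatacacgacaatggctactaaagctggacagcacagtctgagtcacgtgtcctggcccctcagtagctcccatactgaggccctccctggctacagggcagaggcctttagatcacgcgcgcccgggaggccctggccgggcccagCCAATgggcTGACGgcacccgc
Otc: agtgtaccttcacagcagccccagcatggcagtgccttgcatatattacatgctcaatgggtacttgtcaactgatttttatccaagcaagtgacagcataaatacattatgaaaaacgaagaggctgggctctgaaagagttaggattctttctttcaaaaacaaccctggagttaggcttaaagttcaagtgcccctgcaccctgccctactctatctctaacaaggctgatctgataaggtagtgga
Nags: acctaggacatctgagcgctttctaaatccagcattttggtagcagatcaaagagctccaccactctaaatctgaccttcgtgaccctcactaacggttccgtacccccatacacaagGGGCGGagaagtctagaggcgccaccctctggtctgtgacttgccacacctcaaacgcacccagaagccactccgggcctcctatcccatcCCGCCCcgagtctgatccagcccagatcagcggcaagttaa

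The motifs were searched on both strands of the 6 start windows of these 5 genes, Slc25a15 having 2 starts, and the shares are those of 32536 mouse windows of the same length. Slc25a13 held the NF-Y box CCAAT, found in 33.8% of windows, and the CRE core TGACG, found in 17.9%. The Sp1 box GGGCGG, found in 33.0% of windows, was present before Nags, Ass1 and Slc25a15. The C/EBP motif TTGCNNAA (9.6% of windows), the HNF4 core CAAAGT (12.6%), the glucocorticoid receptor core AGAACA (16.0%) and the TATA box TATAAA (12.3%) had no match in the 6 windows, which says only that these letters are not there.

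The mitochondrial entry of the cycle is formed by N-acetylglutamate synthase (Nags), whose product activates Cps1, and by carbamoyl phosphate synthetase 1 (Cps1), which fixes ammonia. Both were lower in DDC livers with TMM scaling, but neither was by library totals.

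Nags (ENSMUSG00000048217, chromosome 11, 102145513 to 102149477, plus strand, GRCm38) had 41.3, 62.5, 53.2 and 56.7 CPM in DDC 1 to 4, against 71.5, 58.8, 75.4 and 66.7 CPM in controls 1 to 4. The groups overlapped, since DDC 2 lay above control 2. Nags averaged 53.4 ± 8.94 CPM in DDC livers and 68.1 ± 7.13 CPM in control livers (SD, n = 4 each), a log2 fold change of -0.35 (SE 0.13, edgeR adjusted p = 0.0370). This call ended when DDC 3 or control 1, 3 or 4 was left out, with edgeR adjusted p from 0.0585 to 0.0910. The value turned to 0.27 under library totals and did not pass (SE 0.13, edgeR adjusted p = 0.0791). Of the exonic bases of Nags, 443 are shared with the antisense gene Gm11586, which held 26 to 54 counts in DDC libraries and 19 to 38 in controls, against 3201 to 5504 and 3002 to 3963 for Nags.

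Cps1 (ENSMUSG00000025991, chromosome 1, 67123026 to 67231259, plus strand) had 2835, 2993, 2603 and 2843 CPM in DDC 1 to 4, against 4993, 4440, 4944 and 4066 CPM in controls 1 to 4. Every DDC library lay below every control. Cps1 fell 1.64-fold, to 2818 ± 161 CPM in DDC livers against 4611 ± 441 CPM in control livers (n = 4 each), with a log2 fold change of -0.71 (SE 0.08, edgeR adjusted p = 7.08e-05). As a share of library totals it overlapped between the groups, with 3493 ± 144 CPM in DDC libraries and 3715 ± 380 CPM in control libraries. The log2 fold change was then -0.09 (SE 0.08, edgeR adjusted p = 0.359).

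With TMM scaling 8 of the 8 genes were lower in DDC livers, where 26.6% of all tested genes were lower and 56.8% were called in either direction. By library totals 5 were lower and 1 was higher, where 8.96% of all tested genes were lower and 58.9% were higher. The 5 that passed as lower under both scalings were Otc, the 2 carriers Slc25a15 and Slc25a13, and the cytosolic pair Ass1 and Asl.

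Ornithine transcarbamylase (Otc) joins carbamoyl phosphate to ornithine in the matrix, and the carrier Slc25a15 brings ornithine in and takes citrulline out. Otc (ENSMUSG00000031173, chromosome X, 10252305 to 10321024, plus strand) had 198, 143, 144 and 123 CPM in DDC 1 to 4, against 447, 403, 438 and 418 CPM in controls 1 to 4. The groups were far apart, and DDC 1 was the highest of the DDC libraries. Otc fell 2.81-fold, to 152 ± 32.0 CPM in DDC livers against 427 ± 19.9 CPM in control livers (n = 4 each), with a log2 fold change of -1.49 (SE 0.13, edgeR adjusted p = 1.02e-05). It was -0.87 by library totals (edgeR adjusted p = 0.000193), and without DDC 1 it was -1.67 with TMM scaling.

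Slc25a15 (ENSMUSG00000031482, chromosome 8, 22375551 to 22398597, minus strand) had 199.8, 247, 209 and 238 CPM in DDC 1 to 4, against 476, 425, 466 and 511 CPM in controls 1 to 4. It fell 2.10-fold, with no overlap, to 223 ± 22.6 CPM in DDC livers against 469 ± 35.3 CPM in control livers (n = 4 each). The log2 fold change was -1.07 (SE 0.09, edgeR adjusted p = 6.54e-06), or -0.45 by library totals (edgeR adjusted p = 0.000987).

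Slc25a13, known as citrin, exports aspartate from the mitochondria for the cytosolic steps and was the member with the largest log2 fold change. Slc25a13 (ENSMUSG00000015112, chromosome 6, 6041218 to 6217173, minus strand) had 70.5, 103, 91.2 and 92.1 CPM in DDC 1 to 4, against 249.7, 258, 264 and 273 CPM in controls 1 to 4. DDC 1 was the lowest library, and the controls lay close together. The gene fell 2.93-fold, to 89.2 ± 13.6 CPM in DDC livers against 261 ± 9.69 CPM in control livers (n = 4 each), with a log2 fold change of -1.55 (SE 0.11, edgeR adjusted p = 1.92e-06). Under library totals it was -0.92 (edgeR adjusted p = 4.09e-05).

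Argininosuccinate synthetase (Ass1) joins citrulline to aspartate, and argininosuccinate lyase (Asl) splits the product into arginine and fumarate. Ass1 (ENSMUSG00000076441, chromosome 2, 31470207 to 31520672, plus strand) had 1759, 2015, 1746 and 2001 CPM in DDC 1 to 4, against 5078, 4259, 4970 and 4007 CPM in controls 1 to 4. Controls 1 and 3 were above controls 2 and 4, and all lay above the DDC libraries. Ass1 fell 2.44-fold, to 1880 ± 148 CPM in DDC livers against 4579 ± 526 CPM in control livers (n = 4 each), with a log2 fold change of -1.28 (SE 0.10, edgeR adjusted p = 3.70e-06). Under library totals it was -0.66 (edgeR adjusted p = 0.000218).

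Asl (ENSMUSG00000025533, chromosome 5, 130011258 to 130025019, minus strand) had 453, 358, 350.1 and 375 CPM in DDC 1 to 4, against 1123, 969, 1077 and 1068 CPM in controls 1 to 4. It fell 2.76-fold, with no overlap, to 384 ± 46.9 CPM in DDC livers against 1059 ± 64.8 CPM in control livers (n = 4 each). The log2 fold change was -1.46 (SE 0.09, edgeR adjusted p = 1.22e-06), or -0.84 by library totals (edgeR adjusted p = 2.28e-05).

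Liver arginase (Arg1), the last enzyme of the cycle, was the member whose call turned round with the scaling. Arg1 (ENSMUSG00000019987, chromosome 10, 24915221 to 24927484, minus strand) had 1083, 1269, 1184 and 1252 CPM in DDC 1 to 4, against 1559, 1328, 1459 and 1471 CPM in controls 1 to 4. The groups did not overlap. With TMM scaling Arg1 fell 1.21-fold, to 1197 ± 84.6 CPM in DDC livers against 1454 ± 95.3 CPM in control livers (n = 4 each), with a log2 fold change of -0.28 (SE 0.08, edgeR adjusted p = 0.0111). Without controls 1 and 3 it was -0.23 and did not pass (edgeR adjusted p = 0.0679). As a share of library totals Arg1 was higher in every DDC library than in any control, at 1485 ± 111 CPM in DDC libraries and 1171 ± 70.1 CPM in control libraries. The log2 fold change was then 0.34 (SE 0.07, edgeR adjusted p = 0.00257). Arg1 is also made by macrophages. The 10 macrophage markers examined were all higher in DDC livers, where 30.2% of all tested genes were. Their summed level was 1960 to 2114 CPM in DDC libraries and 304 to 387 CPM in control libraries. Their part in the Arg1 level was not tested.

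**Figure D1:**
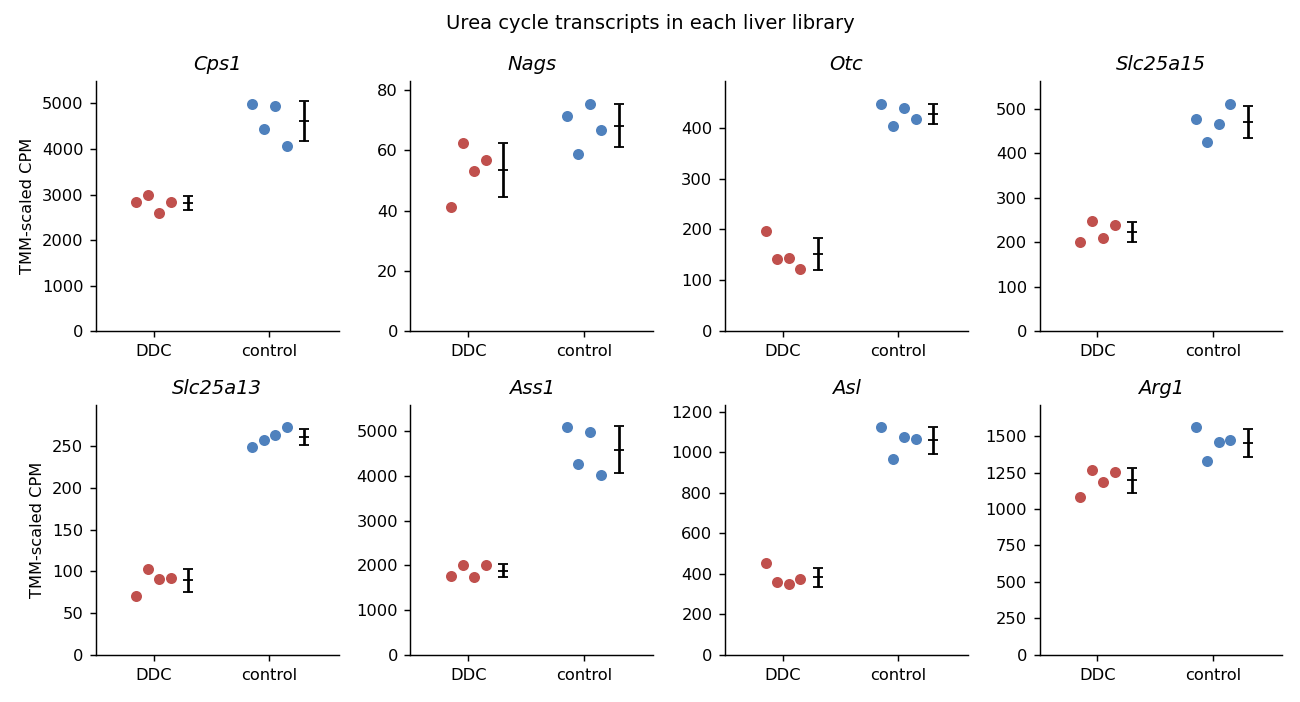
TMM-scaled CPM (vertical axes, from 0) of each of the 8 genes, with a point for each library and the mean ± SD beside the 4 points of each group. The DDC points lie below the control points in 7 panels, and in the Nags panel DDC 2 at 62.5 CPM lies above control 2 at 58.8 CPM. By library totals, not plotted here, Arg1 was higher in DDC, at 0.34 on the log2 scale, Nags stood at 0.27 without a call and Cps1 overlapped.

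The median log2 fold change of the 8 genes was -1.18 with TMM scaling, against 0.073 for all tested genes, and -0.55 by library totals, against 0.70 for all. The distance of the median member to the median gene was therefore -1.25 under both scalings. Taken as a distance to the median gene with TMM scaling, Slc25a13, Otc, Asl and Ass1 stood at -1.62, -1.56, -1.54 and -1.36. Slc25a15 stood at -1.14 and Cps1 at -0.78, and Nags and Arg1 were nearest to it at -0.42 and -0.35. The groups did not overlap for 7 of the 8 genes, each lower in DDC, where 25.7% of all tested genes were lower without overlap. By library totals 5 genes were lower without overlap, where 8.2% of all tested genes were, and Arg1 was higher, where 54.3% were.

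**Figure D2:**
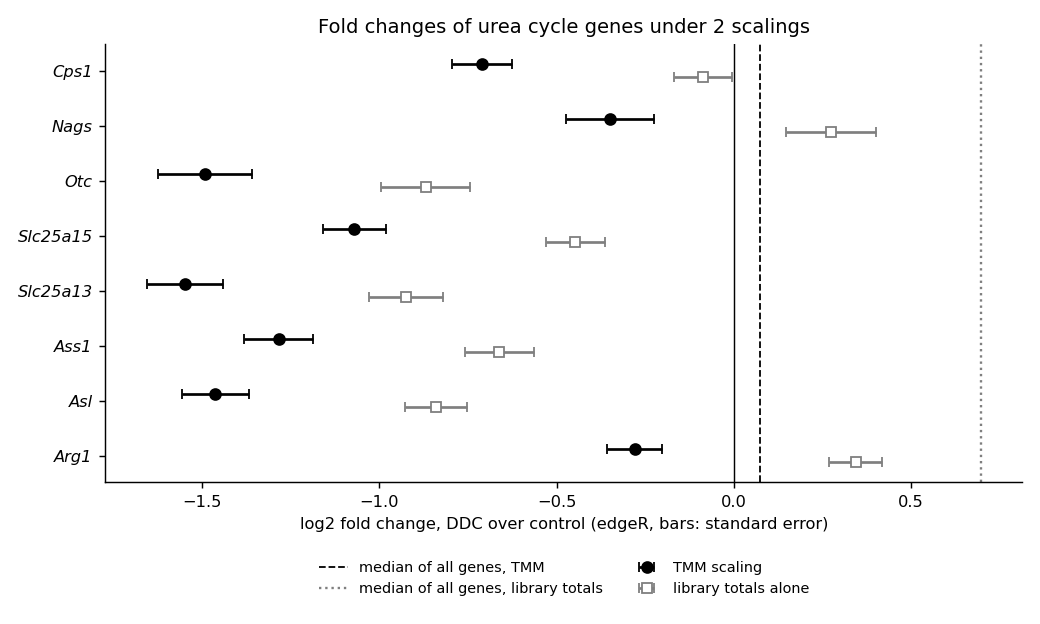
Log2 fold changes, DDC over control, of the 8 genes (horizontal axis, bars for the standard error) with TMM scaling (filled circles) and with library totals (open squares), beside the median of all tested genes under each scaling (dashed and dotted lines). Every member lies to the left of the median gene of its own scaling, and Nags and Arg1 change sign between the scalings, to 0.27 and 0.34 by library totals.

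The summed level of the 8 genes was 6380 to 7191 CPM in DDC libraries and 11880 to 13998 CPM in control libraries with TMM scaling. As a share of library totals, where the fall was smaller, they took 0.813%, 0.871%, 0.809% and 0.879% of all counts in DDC 1 to 4, against 1.12%, 0.990%, 1.11% and 0.940% in controls 1 to 4. The groups did not overlap, with 0.843 ± 0.0374% in DDC libraries and 1.04 ± 0.0908% in control libraries (SD, n = 4 each, exact two-sided permutation p = 0.0286). A p of 0.0286 is the smallest that the 70 assignments of 4 against 4 libraries allow.

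The genes did not change equally. Ratios between genes of a library do not depend on the scaling between libraries. The log2 ratio of each gene to the mean of the 8 in its own library differed between the groups for 7 of the 8 (exact two-sided permutation p = 0.0286 each, 0.0327 after Benjamini-Hochberg adjustment over the 8). These ratios share a denominator that holds the member, so they sum to 0 in every library. The ratio was not taken for other genes, so the count of 7 has no share of all tested genes beside it. Arg1 was higher against the 8-gene mean by 0.75 in DDC than in control libraries, Nags by 0.67 and Cps1 by 0.32. The differences of the genes that were lower against that mean were -0.53 for Slc25a13, -0.48 for Otc, -0.44 for Asl and -0.25 for Ass1. Slc25a15 had a log2 ratio of -0.75 ± 0.09 in DDC libraries and -0.70 ± 0.10 in control libraries and did not pass (exact permutation p = 0.543, n = 4 each).

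Set against 9 hepatocyte markers of the whole lobule (Alb, Ttr, Apoa1, Apob, Ahsg, Fgb, Serpinc1, Apoh and Hpx), the mean of the 8 genes was lower in each DDC library than in any control. The log2 ratio was -3.37 ± 0.06 in DDC libraries and -3.17 ± 0.06 in control libraries, a difference of -0.19 (n = 4 each, exact permutation p = 0.0286, adjusted over 9 comparisons 0.0429). The same test gave differences of -0.72 for Slc25a13, -0.68 for Otc, -0.63 for Asl and -0.44 for Ass1, each with no overlap and an adjusted exact permutation p of 0.0429. Arg1 was higher relative to these markers, with a log2 ratio of -1.69 ± 0.13 in DDC libraries and -2.24 ± 0.06 in control libraries, a difference of 0.56 (n = 4 each, adjusted exact permutation p = 0.0429). Cps1, Nags and Slc25a15 overlapped between the groups and did not pass, with differences of 0.13, 0.48 and -0.24 (adjusted exact permutation p = 0.143, 0.0643 and 0.0643). The 9 markers themselves ran from -1.31 for Ttr to 0.29 for Hpx as log2 fold changes with TMM scaling. Hpx alone lay above 0, without a call. How far the difference of -0.19 rests on Hpx was not tested. These ratios were not taken for other genes, so the members without overlap have no share of all tested genes beside them.

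The comparison changed with the markers in the denominator. The 10 periportal markers ran from -3.07 for Cyp2f2 to 0.64 for Ctsc, which rose, as log2 fold changes with TMM scaling. Pck1 stood at -2.07, and Aldh1b1 at -0.10 without a call. Against these 10 markers, the mean of the 8 genes, Arg1, Nags, Cps1 and Slc25a15 were higher in every DDC library than in any control. Their differences, DDC minus control, were 0.31, 1.06, 0.98, 0.63 and 0.26. Each had the smallest exact permutation p that 4 against 4 libraries allow, 0.0286. It adjusts to 0.0514 over the 9 comparisons because only 5 of them reached it, so none passed 0.05. The groups overlapped for Ass1, Slc25a13, Otc and Asl, with differences of 0.059, -0.22, -0.17 and -0.13 (exact permutation p from 0.0857 to 0.4). These ratios were not taken for other genes either, so the 5 without overlap have no share of all tested genes beside them.

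**Figure D3:**
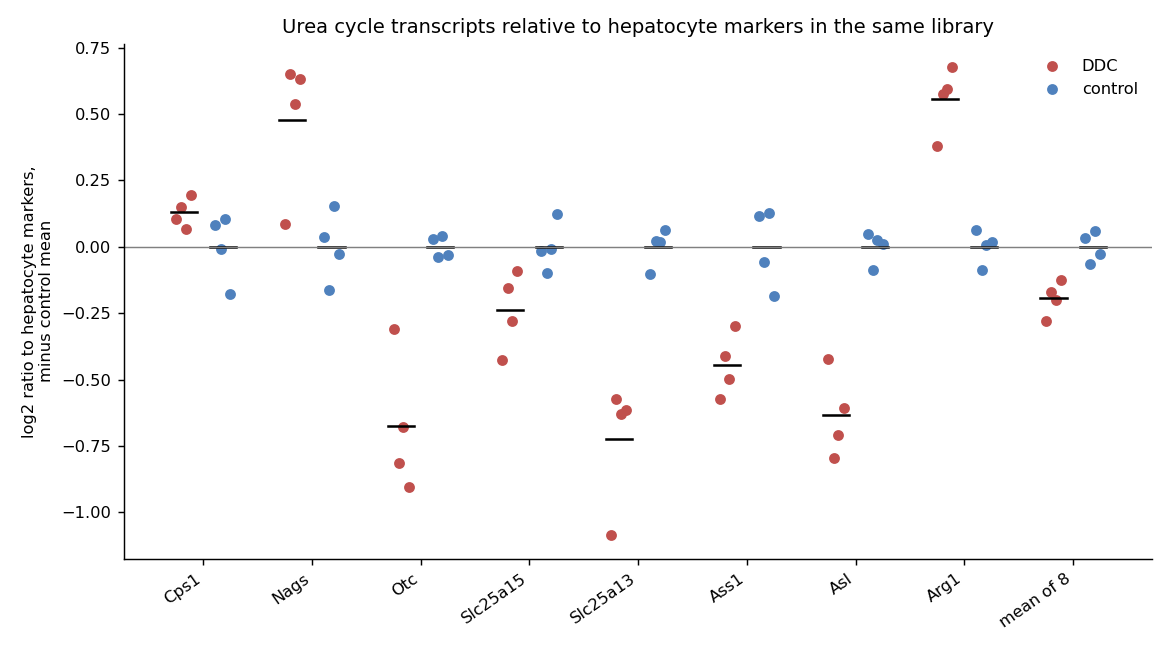
Log2 ratio of each gene, and of the mean of the 8, to the mean of 9 hepatocyte markers in the same library (vertical axis, less the control mean of that gene), with a point for each library and a line at each group mean. Slc25a13, Otc, Asl and Ass1 lie lower in DDC libraries with no overlap, Arg1 lies higher by 0.56, and DDC 1 is the lowest point for Slc25a13.

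Levels per transcript length were read from the deposited FPKM values, which the authors scaled by length and depth. In DDC livers Ass1 had the highest FPKM, with 930 ± 70.7, followed by Arg1 with 642 ± 48.1 and Cps1 with 605 ± 25.1 (n = 4 each). In control livers Ass1 had 1478 ± 179 FPKM, followed by Cps1 with 647 ± 66.9 and Arg1 with 508 ± 30.2. Arg1 was above Cps1 in 3 of 4 DDC libraries and its range overlapped that of Cps1, whereas Cps1 was above Arg1 in 4 of 4 control libraries without overlap. Nags had the lowest FPKM in both groups, 22.5 ± 3.74 in DDC livers and 18.7 ± 1.95 in control livers. The FPKM of Ass1 was 41.4 times that of Nags in DDC livers and 79.1 times in control livers.

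Between these extremes Asl had 94.9 ± 10.8 FPKM in DDC livers and 171 ± 9.57 in control livers. Slc25a15 had 47.4 ± 4.65 and Otc 42.7 ± 8.53 FPKM in DDC livers, with overlapping ranges, while in control livers Otc with 78.3 ± 3.72 lay above Slc25a15 with 64.9 ± 3.97. Slc25a13 had 28.05 ± 4.26 FPKM in DDC livers, overlapping the range of Nags, and 53.5 ± 1.69 in control livers, above it. In control livers the ranges of neighbours in this order did not overlap, and in DDC livers they overlapped for 3 of the 7 neighbouring pairs. Of the summed FPKM of the 8 genes, Ass1 took 38.5 ± 0.886% in DDC livers and 48.9 ± 1.58% in control livers, and Arg1 took 26.6 ± 1.11% in DDC livers and 16.9 ± 1.15% in control livers.

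**Figure D4:**
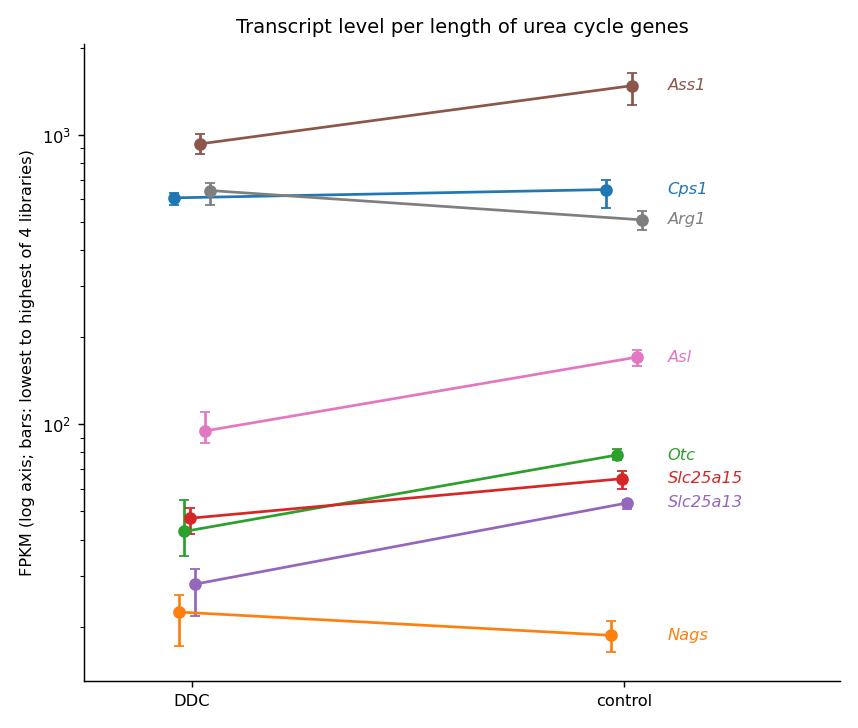
Deposited FPKM of the 8 genes (vertical log axis) in DDC and control livers, with points at the mean of 4 libraries, joined by a line for each gene, and bars to the lowest and highest library. Ass1 is the highest gene in both groups, and Arg1 lies above Cps1 in DDC livers, with 642 and 605 FPKM, and below it in control livers, with 508 and 647 FPKM.

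DDC 1 differed from DDC 2 to 4 in both directions. Its Otc and Asl levels, 198 and 453 CPM, were above the other DDC libraries, at 1.45 and 1.25 times their mean. Its Nags and Slc25a13 levels, 41.3 and 70.5 CPM, were below them, at 0.719 and 0.739 times their mean, and Slc25a15 and Arg1 were also below. Cps1 and Ass1 lay within the range of the other DDC libraries. Without DDC 1 the 8 genes were all called lower with TMM scaling, as with all libraries.

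Several members have a counterpart outside the hepatic cycle, and the mitochondrial arginase Arg2 was the counterpart that rose. Arg2 had 5.33, 4.60, 4.77 and 4.30 CPM in DDC 1 to 4, against 0.272, 0.608, 0.704 and 0.785 CPM in controls 1 to 4. It rose 8.01-fold (log2 fold change 3.00, SE 0.31, edgeR adjusted p = 2.93e-05), and still had 3.97 FPKM in DDC livers beside 642 FPKM of Arg1. The log2 ratio of Arg1 to Arg2 counts was 7.98 ± 0.23 in DDC libraries and 11.3 ± 0.74 in control libraries (n = 4 each, exact permutation p = 0.0286, adjusted over 4 pairs 0.0381).

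Slc25a12, the aspartate-glutamate carrier of muscle and brain, fell 1.23-fold to 17.1 CPM in DDC livers, against 21.1 CPM in control livers (edgeR adjusted p = 0.00293), but passed as higher by library totals, at 0.32 on the log2 scale (edgeR adjusted p = 0.00211). The log2 ratio of Slc25a13 to Slc25a12 was 2.37 ± 0.29 in DDC libraries and 3.63 ± 0.07 in control libraries (n = 4 each, adjusted exact permutation p = 0.0381). Cad, which holds the cytosolic carbamoyl phosphate synthetase of pyrimidine synthesis, had 15.3 CPM in DDC livers and 16.7 CPM in control livers and did not pass (edgeR adjusted p = 0.419). By library totals Cad passed as higher, at 0.50 on the log2 scale (edgeR adjusted p = 0.00730). The ratio of Cps1 to Cad was 7.52 ± 0.08 in DDC libraries and 8.12 ± 0.26 in control libraries on the log2 scale (n = 4 each, adjusted exact permutation p = 0.0381). Slc25a2, a second ornithine carrier, was at 0.315 CPM in DDC livers and 0.408 CPM in control livers and did not pass (edgeR adjusted p = 0.550), nor did the ratio of Slc25a15 to it (adjusted exact permutation p = 0.114).

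Genes that feed, drain or control the cycle were described as 7 lists with 72 tested genes, the counterparts included. With TMM scaling 44 of the 72 were lower and 13 higher in DDC livers, where 26.6% of all tested genes were lower and 30.2% higher. Under library totals 25 were lower and 27 higher, where 8.96% of all tested genes were lower and 58.9% higher. These shares stand beside the counts of each list below.

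Of 14 genes that supply ammonia and aspartate, 11 fell and 1 rose with TMM scaling, with a median log2 fold change of -0.55, and under library totals 4 fell and 5 rose. Aspg, an asparaginase, fell 4.60-fold to 42.9 CPM in DDC livers against 197 CPM in control livers. Got1, the cytosolic aspartate aminotransferase, fell 4.40-fold to 194 CPM in DDC livers against 854 CPM in control livers. Sds, the serine dehydratase, and Gls2, the liver glutaminase that releases ammonia next to Cps1, fell 3.51-fold and 3.46-fold.

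Of 4 genes of mitochondrial bicarbonate supply and deacylation 3 fell with TMM scaling, and 2 fell and 1 rose under library totals. Car5a, the carbonic anhydrase that provides bicarbonate to Cps1, fell 5.71-fold to 12.7 CPM in DDC livers against 72.3 CPM in control livers, a larger fold than that of any of the 8 cycle genes. Sirt3 fell 3.54-fold. Sirt5, the deacylase that acts on Cps1 protein, fell 1.42-fold (edgeR adjusted p = 0.00420), and stood at 0.12 on the log2 scale by library totals, without a call.

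Of 18 genes that use ornithine or arginine, 7 were higher and 7 lower with TMM scaling. Over all tested genes 30.2% were higher and 26.6% lower. Under library totals 10 were higher and 5 lower, against 58.9% and 8.96% of all tested genes. Oat, the ornithine aminotransferase of pericentral hepatocytes, fell 5.70-fold to 248 CPM in DDC livers against 1413 CPM in control livers. Gamt, which completes creatine synthesis, fell 3.02-fold, and Gatm, which starts it from arginine, rose 3.60-fold to 15.8 CPM in DDC livers against 4.39 CPM in control livers. Nos2, the inducible nitric oxide synthase that also consumes arginine, had 4.37, 9.02, 17.9 and 11.3 CPM in DDC 1 to 4, against 0, 0.608, 0.228 and 0.145 CPM in controls 1 to 4. Its log2 fold change was 5.43 (SE 0.83, edgeR adjusted p = 0.000681) and 6.39 without control 2, and its call did not hold with limma voom (adjusted p = 0.0502).

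Of 15 genes of amino acid, urea and mitochondrial transport, 9 fell and 3 rose with TMM scaling, and 5 fell and 6 rose under library totals. Slc7a2, the arginine and ornithine transporter of the hepatocyte surface, fell 3.86-fold to 371 CPM in DDC livers against 1432 CPM in control livers. The amino acid transporters Slc38a4, Slc38a3 and Slc38a2 fell 3.38-fold, 3.35-fold and 3.15-fold. Slc7a7, which exports cationic amino acids, rose 2.88-fold to 9.91 CPM in DDC livers against 3.45 CPM in control livers (edgeR adjusted p = 6.52e-06).

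Ammonia that escapes the periportal urea cycle is taken up by pericentral hepatocytes, which turn it into glutamine. Of 4 genes listed around this step, transporters among them, 2 fell and 1 rose under both scalings. Slc1a2, a glutamate transporter, fell 27.1-fold to 15.7 CPM in DDC livers against 425 CPM in control livers. Glul, the glutamine synthetase, fell 7.42-fold to 155 CPM in DDC livers against 1150 CPM in control livers. Slc1a4, a neutral amino acid transporter, rose 5.35-fold to 22.9 CPM in DDC livers against 4.27 CPM in control livers. It is not among the pericentral markers counted below.

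Of 13 transcription factors and receptors that regulate urea cycle genes, 11 fell and 0 rose with TMM scaling (edgeR), and 7 fell and 1 rose under library totals. Klf15, Foxo1 and Creb3l3 fell 3.70-fold, 3.46-fold and 2.82-fold. Ppargc1a, the coactivator PGC-1 alpha, had 27.95, 6.50, 6.77 and 6.22 CPM in DDC 1 to 4, against 44.4, 47.5, 45.2 and 46.9 CPM in controls 1 to 4. Its log2 fold change was -1.96 (edgeR adjusted p = 0.0163) and -2.84 without DDC 1, and the call ended without controls 1 and 3 or without controls 2 and 4 (edgeR adjusted p = 0.0632 and 0.0825).

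**Figure D5:**
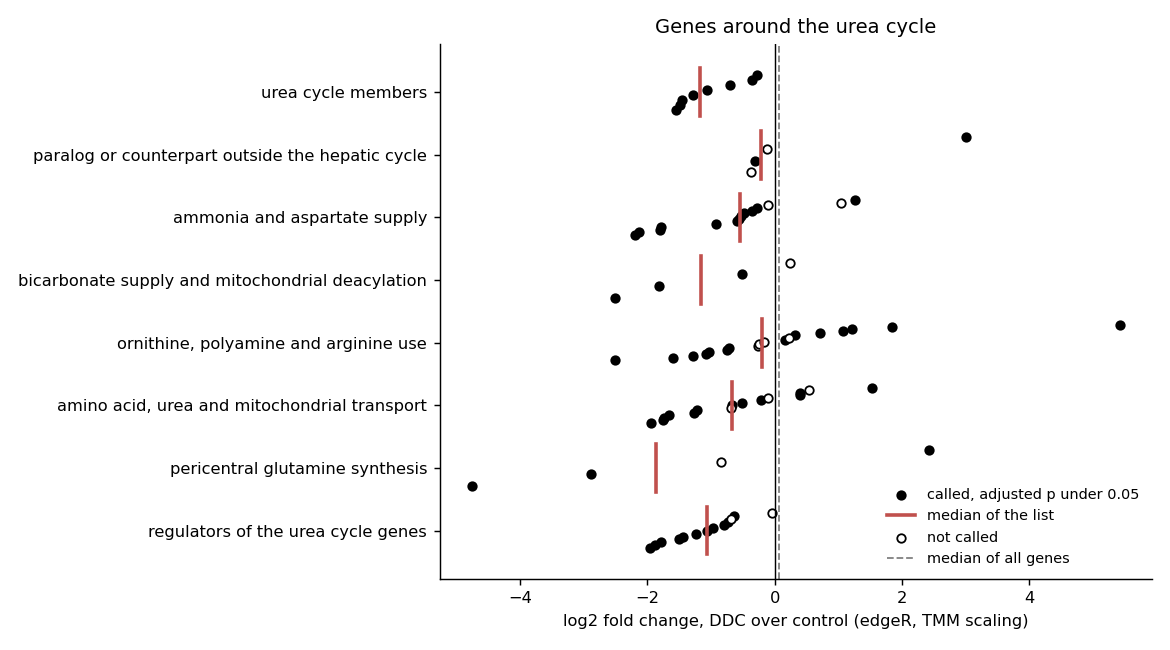
Log2 fold changes, DDC over control (horizontal axis, edgeR with TMM scaling), of the 8 urea cycle genes and of 7 lists of genes around the cycle, with filled points for called genes, open points for others, a bar at each list's median and a dashed line at the median of all tested genes. The 8 cycle genes lie between -1.55 and -0.28, of which Arg1 and Nags turn to 0.34 and 0.27 by library totals. The ornithine, polyamine and arginine list has 7 called genes on each side of 0. Of all tested genes 30.2% were called higher and 26.6% lower.

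Markers of liver cell types were counted in the same way. With TMM scaling 26.6% of all tested genes were lower and 30.2% higher. Under library totals 8.96% of them were lower and 58.9% higher. Of the 9 hepatocyte markers 8 were lower and 0 higher with TMM scaling (edgeR), and 7 lower and 2 higher under library totals, with a summed level of 71220 to 84403 CPM in DDC libraries and 143330 to 170834 CPM in control libraries. Ttr had the largest change among them, 2.48-fold lower. Of 10 periportal markers, 3 of which (Hal, Sds and Gls2) also stand in the ammonia list, 8 were lower and 1 higher, or 6 and 1 under library totals, with a sum of 3064 to 3322 CPM in DDC libraries and 10975 to 12887 CPM in control libraries, and Cyp2f2 was lower 8.41-fold. Of 9 pericentral markers, 4 of which (Glul, Oat, Rhbg and Slc1a2) also stand in the lists above, 5 were lower and 0 higher (edgeR), or 5 and 1 under library totals, with a sum of 2561 to 3397 CPM in DDC libraries and 15628 to 17834 CPM in control libraries.

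Of markers of other cells, 10 of 10 for macrophages, 2 of 4 for alternatively activated macrophages and 5 of 6 for cholangiocytes were higher in DDC livers with TMM scaling, with the largest changes in Gpnmb, Chil3 and Cftr. Under library totals these were 10, 3 and 5. Over all tested genes 30.2% were higher with TMM scaling and 58.9% under library totals. The sums of the cholangiocyte list were 699 to 1073 CPM in DDC libraries and 66.8 to 145 CPM in control libraries. Those of the alternatively activated macrophage list were 124 to 168 CPM in DDC libraries and 66.0 to 75.4 CPM in control libraries. For stellate cells and fibroblasts 3 of 6 were higher, or 5 under library totals, with sums of 600.4 to 669 CPM in DDC libraries and 269 to 349 CPM in control libraries. For endothelium 2 of 6 were higher with TMM scaling, near the 30.2% of all tested genes, or 6 under library totals, with sums of 129.6 to 177 CPM in DDC libraries and 110.1 to 136 CPM in control libraries. For lymphocytes and neutrophils 4 of 8 were higher and 2 lower, the 2 being near the 26.6% of all tested genes. Under library totals 5 were higher, near the 58.9% of all tested genes, and 1 was lower. The sums were 34.3 to 73.8 CPM in DDC libraries and 20.7 to 24.5 CPM in control libraries. No marker was at 0 in all libraries, and the part of these cells in the values of the 8 genes was not tested.

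The genes whose levels followed the mean of the 8 most closely over the 8 libraries were sought among 8787 genes at 10 CPM or more. They were Itih1, a heavy chain of a plasma protease inhibitor, Lap3, a leucine aminopeptidase, Nit2, an omega-amidase, Cpox, an enzyme of heme synthesis, and Aldh8a1, an aldehyde dehydrogenase of tryptophan breakdown. Pearson's r of log2 CPM was 0.9987 to 0.9988, and 0.92 to 0.96 after each group was centred at its own mean. Between the 8 members themselves, r after the same centring ran from -0.80 to 0.92 over 28 pairs, with a median of 0.26. The libraries share the group difference and the scaling, and r is given as a measure of likeness only.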

How the data were processed

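Polyadenylated RNA of mouse liver was sequenced in 8 libraries, 4 per group. The authors deposited whole-number read counts per gene, without normalization, and FPKM values, in which counts are scaled by length and depth. The submitters' processing notes name HISAT2, StringTie, cutadapt, FastQC and DESeq2 and the builds GRCm38 and mm10. The counting step and its use of strand are not given in the sources used here. Coordinates are those of the deposited table.

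Counts of 55401 genes were fitted with edgeR 4.0.16 in R 4.3.3 (filterByExpr, TMM, robust quasi-likelihood, two-sided, Benjamini-Hochberg over 19535 genes). The standard error is the log2 fold change over the root of F. Ratios and shares were tested by exact permutation. Depth was 61179103 to 81664058 counts per library.

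The members, lists and tests were chosen with earlier results of these data known. Named genes were the members, their counterparts, up to 4 called genes per list with FPKM of 1 or more by size of change, the largest called gene against its list, and the 5 genes closest to the members' mean. A gene of the ammonia list that this rule names is not reported here. Alternatives were other scalings and filters, DESeq2 1.42.0, limma 3.58.1, FPKM with pseudocounts of 0.1 and 1, a replicate block and omitted libraries.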

Additional observations from a re-analysis of the deposited data

Results flagged for a closer look

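For the members, their counterparts, the named genes of the lists and the tested ratios and share, each group of 4 libraries was searched. The search was for a library far from the other 3, by Dixon's ratio at its 95% limit. Genes of the lists that are not named were not searched. Of 114 groups examined 6 had such a library, and chance gives about 1 in 20. Among the urea cycle genes, the log2 ratio of Cps1 to the 8-gene mean was 2.44 in control 4, against 2.64 to 2.65 in the other controls. That of Slc25a15 was -0.55 in control 4, against -0.77 to -0.74 in the others. The log2 ratio of Slc25a13 to the hepatocyte markers was -5.81 in DDC 1, against -5.35 to -5.29 in DDC 2 to 4. The log2 ratio of Arg1 to Arg2 was 12.4 in control 1, against 10.9 to 11.1 in the other controls.

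Among the named genes around the cycle, Ppargc1a had 27.95 CPM in DDC 1, against 6.22 to 6.77 CPM in DDC 2 to 4. Slc7a7 was lowest in control 1, with 2.85 CPM, while controls 2 to 4 had 3.59 to 3.70 CPM.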

How the results depend on the processing

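Otc, Slc25a15, Slc25a13, Ass1 and Asl kept their direction and their call as log2 fold changes under every scaling, filter, tool and omitted library tried. Cps1, Nags and Arg1 changed direction or call with the scaling, and Nags and Arg1 also lost their call in some settings with TMM scaling. The median gene moved by 0.62 between TMM and library totals. With DESeq2 and with DESeq2 size factors all 8 members kept their direction and call. Another 5 settings scaled by totals or used the deposited FPKM. They were, in order, library totals, totals without the 20 most abundant genes, limma on log2(FPKM + 0.1), limma on log2(FPKM + 1), and the last without a filter. Over these Arg1 turned to 0.34, 0.29, 0.34, 0.34 and 0.34 and Nags to 0.27, 0.22, 0.26, 0.24 and 0.24. Cps1 lost its call at -0.088, -0.14, -0.090, -0.090 and -0.090. In each of the 5 settings, 5 members were called lower and 1 higher, and the members' median was -0.55, -0.61, -0.56, -0.56 and -0.56. Of the genes around the cycle 25, 27, 26, 26 and 26 were lower and 27, 26, 27, 27 and 26 higher. Slc25a12 turned to 0.32, 0.27, 0.30, 0.22 and 0.22, Sirt5 to 0.12, 0.062, 0.11, 0.070 and 0.070, Slc25a2 to 0.26, 0.21, 0.23, 0.053 and 0.053, and Cad to 0.50, 0.45, 0.49, 0.33 and 0.33.

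Nags was the least secure call: it ended with upper-quartile scaling (-0.29) and without the count filter (-0.31), and ranged from -0.43 to -0.27 with single libraries left out. Leaving out controls 1 and 3, chosen after seeing the data, gave -0.24 for Nags and -0.23 for Arg1, neither called, and 6 members lower; leaving out controls 2 and 4 instead kept 8 members lower. Slc25a2, at a fraction of a CPM, ranged from -0.60 to 0.077 with single libraries left out and turned to 0.27 without controls 2 and 4. The ratio of Slc25a15 to the 8-gene mean ranged from -0.070 to 0.0063. With periportal markers as denominator the ratios of Otc (-0.17), Slc25a13 (-0.22) and Asl (-0.13) overlapped between the groups, and those of Slc25a15 (0.26), Ass1 (0.059) and the 8-gene mean (0.31) turned. That of Arg1 grew to 1.06 without overlap, at an adjusted exact permutation p of 0.0514. This value follows from the smallest p that the libraries allow and from how many comparisons reached it. Without Alb in the denominator Slc25a15 passed at -0.29. No other hepatocyte marker was left out. The cause of these changes was not tested beyond the settings themselves.

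With the replicate number as a block, 7 members were called lower, and Nags lost its call at -0.36 (edgeR adjusted p = 0.0826). Same-numbered libraries did not deviate together (correlations -0.26 to 0.03), so the numbers were not treated as pairs. Depth did not limit the members, of which the lowest held 3002 counts in a library, whereas Nos2, Arg2 and Slc25a2 rest on few counts in controls.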
